A study of Sorghum bicolor with 8 samples.

Results

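The genes described here were expressed in Callus II of sorghum and at a much lower level in leaf and in both other callus types. A gene was a member where both Callus II libraries had at least 10 FPKM and the lower of them was at least 8 times the highest value among the 6 other libraries. FPKM counts the fragments of a transcript, corrected for its length and for the number of fragments in the library. By this rule 106 of 34129 genes (0.311%) were members. The rule read every library, so the height of these genes in Callus II is a description of how they were chosen and carries no test.

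Callus is a mass of dividing plant cells without organs, grown in culture on hormone-containing medium. In cereals, immature embryos give rise to callus of several textures, and these differ in how readily shoots form from them. Regeneration from such callus passes through new shoot meristems or through embryo-like structures, and it is the step on which transformation of cereals such as sorghum depends.

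All material came from the wild-type line Hiro-1, grown from immature embryos of 1 to 2 mm taken 13 to 15 days after flowering. The embryos spent 3 weeks in darkness at 25 °C on medium that induces callus, and Callus I, Callus II and Callus III were then picked apart and subcultured for 20 days on fresh induction medium. Leaf was collected from plantlets that had grown out of Callus II after its move to differentiation medium, in days of 16 h of light (2000 lx) and 8 h of darkness. Each of the 4 groups had 2 libraries, called biological replicates in the labels. Whether a replicate was a culture of its own is not stated, so p-values measure the spread between these libraries, which may be technical. Light and medium also set Leaf apart from the callus groups and cannot be told apart from the tissue. The labels describe no morphology for the callus types and do not rank them by regeneration. In such bulk samples, fewer cells of a type and less RNA per cell cannot be told apart.

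The summed FPKM was 712239 and 643004 in Callus II and ran from 595109 to 737291 over the 8 libraries, with 24497 to 26787 genes above 0. Read totals are not given. Ratios of values under 0.2 FPKM clustered on steps, which put the depth relative to Callus I replicate 1 at 1.074 and 0.974 in Callus II, 1.264 and 1.627 in Leaf, 0.964 and 0.995 in Callus III, with 1.026 in Callus I replicate 2. The modal step held 8.04% to 10.7% of the low pairs in the callus libraries and 3.03% and 4.33% in Leaf, so the Leaf values are the least certain. None of the identifiers was found in the RefSeq gene table used (0 matched) and the files pair no identifier with a name. No gene is therefore given a function, the tissue labels could not be set against marker genes, and at most 2 genes are named in each direction of a comparison and in each description. Locus starts, which the files count from 0, are printed plus 1.

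Callus III replicate 2 and Callus I replicate 1 stood apart from their partner libraries at the members, which bears on the results below. Of the 106 members, 94 were higher in replicate 2 of Callus III than in its replicate 1 and 6 were lower. Over all 23166 tested genes, which had at least 1 FPKM in at least 2 libraries, 70.2% were higher in replicate 2. The median ratio of replicate 2 to replicate 1 was 2.51 at the 93 members above 0 in both, against 1.15 over the tested genes. At the 225 genes that met the same thresholds for Callus III, this ratio was 0.743. In Callus I, 70 members were higher in replicate 1 and 22 in replicate 2, and the median ratio of replicate 2 to replicate 1 was 0.614, against 0.969 over the tested genes. In Callus II, where the members are high, 55 were higher in replicate 2 and 51 in replicate 1, with a median ratio of 1.02. With 2 libraries per group, it cannot be told which library of a pair departs. The part of these library differences in the results was not tested. The counts of members that rest on Callus III replicate 2 most are also given without it.

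**Figure D1:**
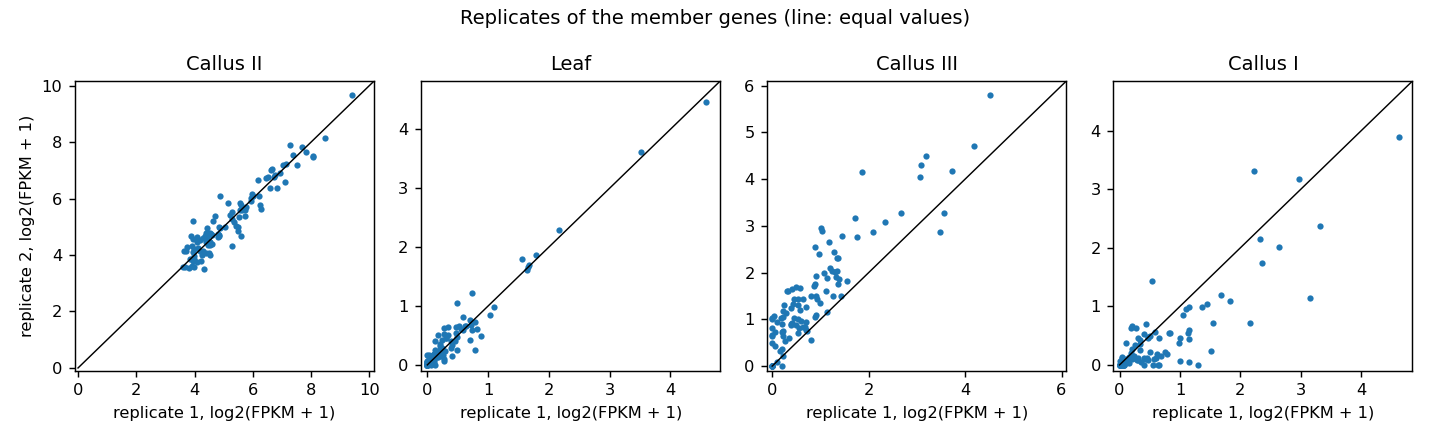
Each point is 1 of the 106 members, with replicate 1 on the horizontal and replicate 2 on the vertical axis as log2(FPKM + 1), and the line marks equal values. Points lie along the line in Callus II and Leaf, mostly above it in Callus III (94 of 106) and mostly below it in Callus I (70 of 106).

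The members covered a wide range of abundance in Callus II. Their mean there ran from 11.1 to 747 FPKM with a median of 27.6, and the quartiles were 18.8 and 63.0 FPKM. A mean of at least 100 FPKM was reached by 17 members and one of at least 200 FPKM by 6. The 10 highest members held 41.5% of the members' summed FPKM in Callus II. Together the members took 0.884% and 0.988% of the FPKM sum of the Callus II libraries. They took 0.0115% and 0.0116% in Leaf, 0.0231% and 0.0516% in Callus III, with 0.0154% and 0.0104% in Callus I.

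The member with the highest mean in Callus II was Sobic.009G208700.v3.2 (bases 55583465 to 55584955 of chromosome 9). Its level was 676 and 819 FPKM in the Callus II libraries, 0.630 and 0.337 in Leaf, 21.9 and 55.1 in Callus III, and for Callus I 0.543 and 0.144. Its Callus III libraries were thus far below Callus II and far above the libraries of Leaf and of Callus I. Sobic.004G276600.v3.2 (bases 61992488 to 61996021 of chromosome 4) came next, at 354 and 284 FPKM in Callus II. Its other values were 0.389 and 0.455 FPKM in Leaf, 2.65 and 16.7 in Callus III, with 0.387 and 0.375 in Callus I. Here the Callus III replicates differed from each other far more than the Leaf or Callus I replicates did.

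The rule read the lower Callus II value, so genes with 1 low Callus II replicate were left out. The closeness of the Callus II replicates at the members is therefore a description of the choice. The larger value was a median of 1.19 times the smaller, and 89 of 106 members were within 1.5 times. At 3 members the replicates were more than 2 times apart. The widest gap was at Sobic.001G139100.v3.2 (chromosome 1), with 14.3 and 35.6 FPKM, a 2.50-fold difference. Sobic.001G059800.v3.2 (chromosome 1), with 28.6 and 67.1 FPKM, followed at 2.34-fold. Both were above 10 FPKM in each Callus II library, which the rule required.

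**Figure D2:**
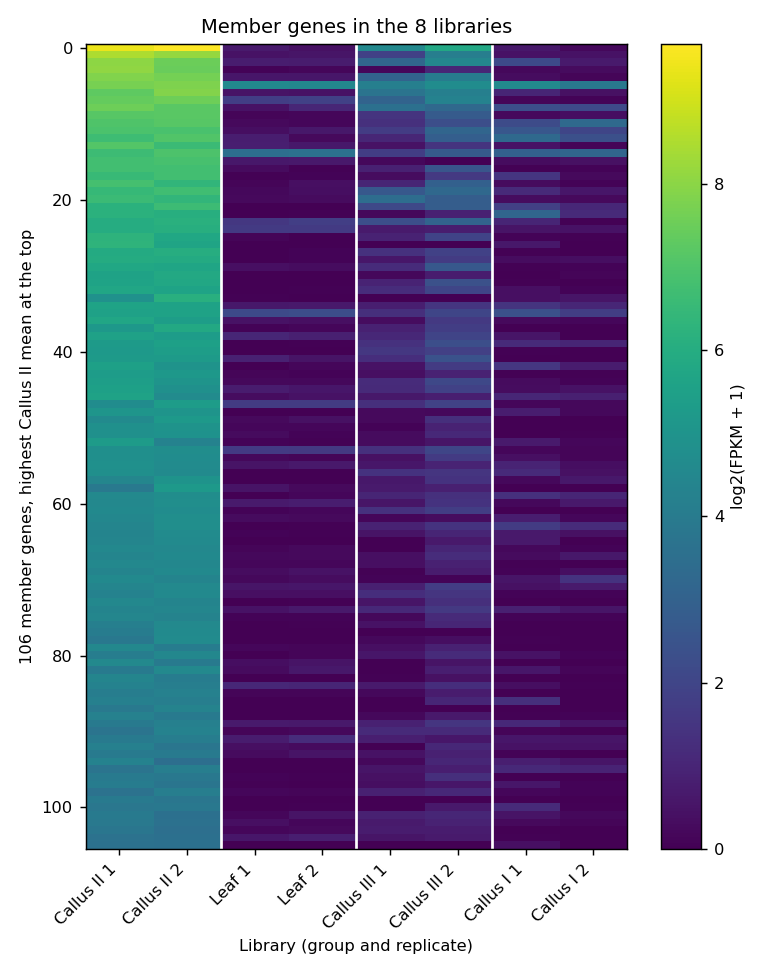
Rows are the 106 members, ordered by their mean in Callus II, and columns are the 8 libraries. Colour gives log2(FPKM + 1). The Callus II columns are bright throughout, most Leaf and Callus I cells are dark, and the Callus III columns, replicate 2 above all, hold a faint signal at many members.

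The lower Callus II value was a median of 14.3 times the highest other value over the 103 members for which a ratio is given, with quartiles of 10.3 and 24.2. All ratios used FPKM as deposited, and median-ratio scaling would lower them. The highest other value had a median of 1.62 FPKM, was under 1 FPKM at 31 members and reached 10 FPKM at 10. No ratio is given for 3 members whose highest other value was under 0.01 FPKM. Of these, 2 were listed at 0 in all 6 other libraries. They were Sobic.003G142000.v3.2 (bases 14068174 to 14069108 of chromosome 3), with 14.6 and 12.8 FPKM in Callus II, and Sobic.003G184600.v3.2 (bases 49234431 to 49235787 of chromosome 3), with 15.8 and 23.7 FPKM. A value listed at 0 in such files can be a failed estimate.

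At 59 members the transcript was above 0 in all 6 other libraries, and at 3 it was at least 1 FPKM in all 6. The largest ratio was that of Sobic.004G311000.v3.2 (bases 64749515 to 64752467 of chromosome 4), whose lower Callus II value was 185 times its highest other value. In Callus II it reached 106 and 114 FPKM. Leaf had 0.553 and 0.575 FPKM of it, Callus III 0.151 and 0, and Callus I 0.262 and 0.341. Leaf was its second-highest group, at a level under 1 FPKM. Sobic.005G080600.v3.2 (bases 10617467 to 10619454 of chromosome 5) followed at 171 times, with 268 and 178 FPKM in Callus II. Its other libraries were at 0.0744 and 0.135 FPKM in Leaf, 0.130 and 1.04 in Callus III, with 0.157 and 0.213 in Callus I. Without Callus III replicate 2, no other library of this gene exceeded 0.213 FPKM.

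**Figure D3:**
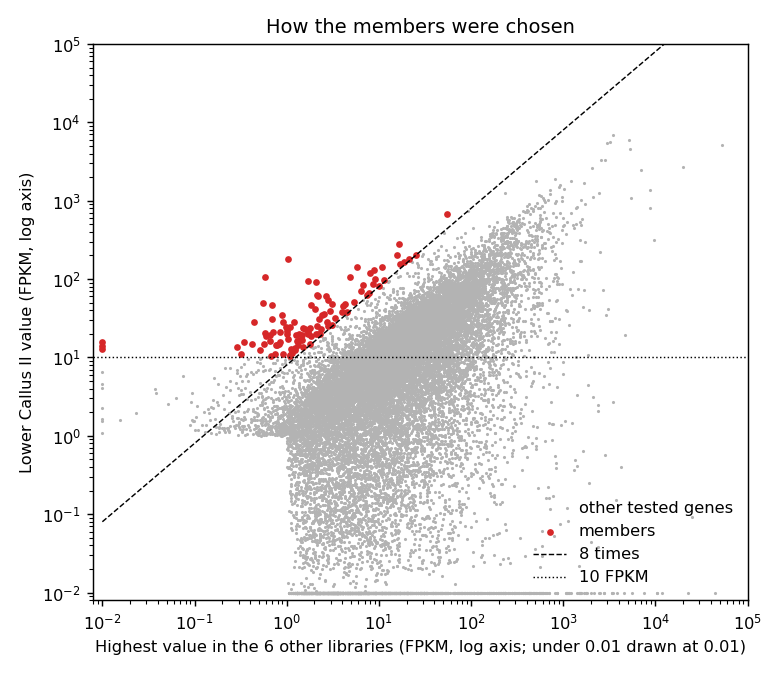
Each point is a tested gene, with the highest value of the 6 other libraries on the horizontal and the lower Callus II value on the vertical axis, both in FPKM on log axes. The dashed line marks 8 times and the dotted line 10 FPKM, and the 106 members lie above both.

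The thresholds cut through a continuous range of values. The member nearest to the 8-times limit, Sobic.007G135900.v3.2 (chromosome 7), had 14.6 and 17.8 FPKM in Callus II and a ratio of 8.08. Just outside, Sobic.003G240500.v3.2 (chromosome 3), with 25.0 and 24.6 FPKM in Callus II, reached a ratio of 7.99. At the 10 FPKM limit, the lower Callus II value was 10.4 FPKM at the nearest member and 9.99 FPKM at the nearest gene outside. Lowering the ratio to 4 gave 253 genes, and raising it to 16 left 45 of the 106. The same thresholds were met by 748 genes for Leaf, 225 for Callus III and 433 for Callus I.

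By group means, Leaf was second to Callus II at 10 members, Callus III at 75 and Callus I at 19, and the 2 members listed at 0 elsewhere had no second group. Callus III replicate 2 raised this count for Callus III. Without that library, Leaf was second at 19 members, Callus III at 56 and Callus I at 29. Without Callus I replicate 1 the numbers were 11 for Leaf, 83 for Callus III and 7 for Callus I, and 5 members had no second group. Member levels in single libraries had medians of 0.136 and 0.134 FPKM in Leaf, 0.557 and 1.48 in Callus III, with 0.263 and 0.0893 in Callus I. As a share of each member's own Callus II mean, the median was 0.318% and 0.369% in Leaf, 1.87% and 5.44% in Callus III, with 0.650% and 0.263% in Callus I. Values of 0 were listed for 24 and 20 members in Leaf, 12 and 7 in Callus III, with 15 and 29 in Callus I.

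Where Leaf was second, its mean had a median of 1.60 FPKM over the 10 members and was a median of 6.19% of the Callus II mean. Where Callus III was second, the medians were 1.22 FPKM and 4.29%, and where Callus I was second they were 0.733 FPKM and 2.93%. Without Callus III replicate 2 the medians were 0.647 FPKM and 2.73% for Leaf, 0.924 FPKM and 2.67% for Callus III, and 0.631 FPKM and 2.52% for Callus I. A mean of at least 5 FPKM was reached by 2 members in Leaf, 12 in Callus III and 4 in Callus I. Without Callus III replicate 2, 9 members reached it in Callus III. Sobic.009G195600.v3.2 (bases 54652600 to 54655364 of chromosome 9), chosen after its values were seen, was the member with the highest level in Leaf. Callus II had 203 and 224 FPKM of it, Leaf 23.1 and 21.1, Callus III 17.2 and 25.0, and Callus I 23.5 and 13.9. The ranges of Leaf, Callus III and Callus I overlapped at this gene, and all were well above 0.

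The single highest other library was Callus III replicate 2 at 76 members, Callus I replicate 1 at 17, Leaf replicate 2 at 6, Callus I replicate 2 at 3 and Callus III replicate 1 at 2. Without Callus III replicate 2 the rule gave 173 genes, the 106 members and 67 more. Leaving out any other single library gave 106 to 148.

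The rule capped the members' levels in Leaf, Callus III and Callus I but did not use the differences among these groups, which were tested in limma on log2(FPKM + 1) with Benjamini-Hochberg adjustment over all 23166 tested genes (2-sided). All 106 members passed the filter on low values through Callus II, where they are high by the rule, and 61 of them through Callus II alone. A member could thus enter a comparison with next to no transcript in either group. Both the cap and the filter bear on how many members could be called, so the shares and medians over all tested genes are printed as background and nothing is read from how the members' shares compare with them. Counts are also given from a second fit of genes with at least 1 FPKM in 2 of the 6 libraries other than Callus II. It tested 45 members and adjusted its own p-values, so its calls need not be among those of the main fit (23166 genes). All shares over tested genes printed below are those of the main fit. They are no background for the second fit, whose own shares are not given. Member counts with a library left out, or under another setting, are given without the share over all genes in that fit. They cannot show whether the members moved more than other genes did. The 3 comparisons share libraries and are not independent of each other. A permutation of 2 libraries against 2 cannot reach a small p, so each call rests on the spread pooled over genes and groups.

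Between Callus III and Callus I, 45 members were called higher in Callus III and 1 lower at an adjusted p under 0.05, and 60 were not called. In the second fit, which tested 45 members, 29 were called higher and 1 lower. Over all genes of the main fit, 26.9% were called higher and 33.2% lower (60.1% in all). The median log2 difference was 0.61 at the members and -0.03 over all tested genes. Of the 45 members called higher in the main fit, 34 had a mean of at least 1 FPKM in Callus III. A mean of at least 5 was reached by 10, and the highest was 38.5 FPKM.

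Sobic.009G208700.v3.2, the most abundant member, showed the largest of these differences. Callus III had 21.9 and 55.1 FPKM of it and Callus I 0.543 and 0.144, a log2 difference of 4.75 with a standard error of 0.40 (limma adjusted p = 6.456e-05). Sobic.001G439000.v3.2 (bases 71697907 to 71704052 of chromosome 1) stood at 166 and 186 FPKM in Callus II. It stood at 7.46 and 18.7 FPKM in Callus III against 0.110 and 0.0711 in Callus I, a log2 difference of 3.56 ± 0.35 (limma adjusted p = 0.0001431). At both genes the libraries of Callus III and Callus I did not overlap. The 1 lower member of the main fit was Sobic.001G086500.v3.2 (bases 6699580 to 6708049 of chromosome 1). It had 0.0677 and 0.0657 FPKM in Callus III against 0.458 and 1.69 in Callus I. Only 1 of its 6 libraries outside Callus II reached 1 FPKM, so it was tested through Callus II alone. It was not in the second fit and so was not the 1 lower member there. Its log2 difference was -0.89 ± 0.27 (limma adjusted p = 0.02616), and it was no longer called without either Callus III library or either Leaf library (adjusted p 0.0683 to 0.0956). The difference was -1.33 without Callus I replicate 1 and -0.45 without Callus I replicate 2.

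Both Callus III libraries were above both Callus I libraries at 63 members and below both at 7, where 36.1% of all tested genes were above and 41% below. The count of members called higher was 32 without Callus III replicate 2, 61 without Callus III replicate 1, 35 without Callus I replicate 1 and 26 without Callus I replicate 2. The count called lower was 0 to 4 when each of the 8 libraries was left out in turn.

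**Figure D4:**
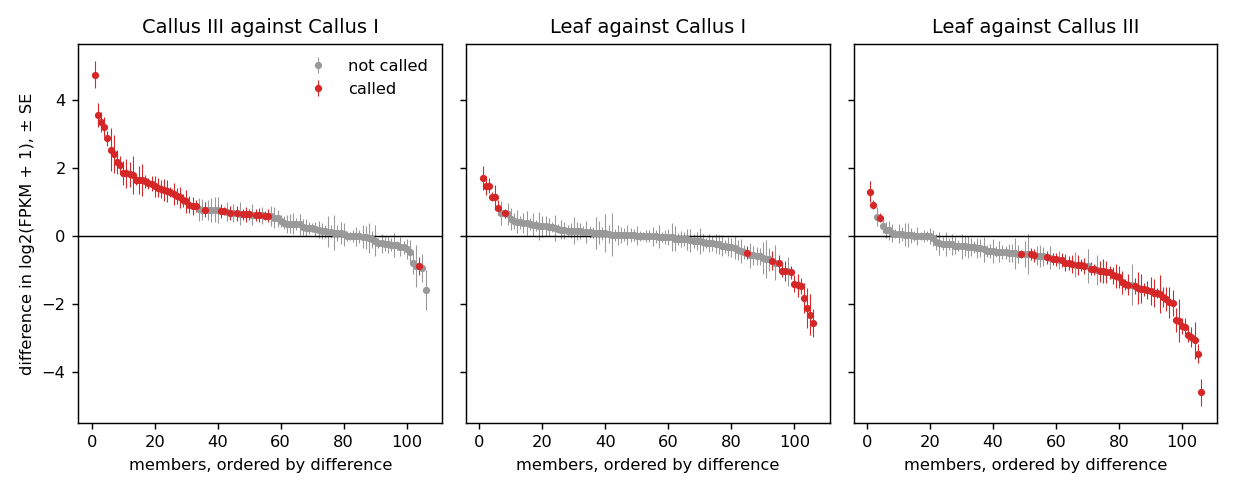
Each panel gives the difference in log2(FPKM + 1) between 2 groups for the 106 members, ordered by size, with the standard error as a bar and called members in red. Against Callus I, 45 members were called higher in Callus III and 1 lower (of all tested genes, 26.9% and 33.2%). In Leaf, 47 were called lower than in Callus III and 3 higher (of all tested genes, 25.6% and 38.5%). Leaf against Callus I had 7 members called higher and 13 lower (of all tested genes, 38.8% and 32.1%). Of the 106 members, 61 passed the filter on low values through Callus II alone.

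Leaf grew out of Callus II, but the rule capped the members' values in Leaf as in the other groups. A mean of at least 1 FPKM was reached by 9 members in Leaf, 54 in Callus III and 18 in Callus I. Against Callus III, 47 members were called lower in Leaf and 3 higher in limma, and 56 were not called. In the second fit, which tested 45 members, 30 were called lower and 2 higher. Over all genes of the main fit, 25.6% were called lower in Leaf and 38.5% higher (64.1% in all). The median log2 difference was -0.57 at the members and 0.13 over all tested genes, and median-ratio scaling of the libraries moved the median of all genes to 0.02 and that of the members to -0.63. Both Leaf libraries were below both Callus III libraries at 72 members and above both at 5, where 36.1% of all tested genes were below and 48.4% above.

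The largest fall was at Sobic.009G208700.v3.2, with 0.630 and 0.337 FPKM in Leaf against 21.9 and 55.1 in Callus III (log2 difference -4.60 ± 0.40 SE, limma adjusted p = 6.11e-05). Next was Sobic.010G155800.v3.2 (bases 45951140 to 45953345 of chromosome 10), which had 156 and 238 FPKM in Callus II. It stood at 0.406 and 0.383 FPKM in Leaf against 12.3 and 16.9 in Callus III, a log2 difference of -3.47 ± 0.27 (limma adjusted p = 4.063e-05). The groups did not overlap at either gene.

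Called higher in Leaf were 3 members. Over all genes of the main fit the share was 38.5%, but the rule capped the members' Leaf values, so the members are not compared with it. Sobic.001G161601.v3.2 (bases 13298718 to 13301636 of chromosome 1) had 10.4 and 11.2 FPKM in Leaf against 2.37 and 5.83 in Callus III, higher in Leaf by 1.30 ± 0.31 on the log2 scale (limma adjusted p = 0.009078). Its Callus II values were 98.7 and 126 FPKM. Sobic.003G225700.v3.2 (bases 56190479 to 56195138 of chromosome 3) had 2.15 and 2.16 FPKM in Leaf against 0.617 and 0.703 in Callus III, a log2 difference of 0.93 ± 0.13 (limma adjusted p = 0.0007682). The call at the first of these genes was lost when either Leaf library was left out (adjusted p 0.0628 and 0.0758). Without Leaf replicate 1 the members numbered 22 lower and 1 higher, and without Leaf replicate 2 they numbered 26 and 1. Without Callus III replicate 2, 34 were lower and 4 higher.

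Between Leaf and Callus I, 7 members were called higher in Leaf and 13 lower in limma, and 86 were not called. In the second fit, which tested 45 members, 6 were called higher and 10 lower. Over all genes of the main fit, 38.8% were called higher in Leaf and 32.1% lower (70.8% in all). Only 16 members had at least 1 FPKM in 2 of these 4 libraries. The members not called are not shown to be alike in Leaf and Callus I. Both Leaf libraries were above both Callus I libraries at 35 members and below both at 33, where 47% of all tested genes were above and 39.3% below. The median log2 difference was 0 at the members and 0.11 over all tested genes.

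Sobic.001G439000.v3.2 was the member with the largest rise, at 2.44 and 2.64 FPKM in Leaf against 0.110 and 0.0711 in Callus I (log2 difference 1.70 ± 0.35 SE, limma adjusted p = 0.003828). Sobic.007G212900.v3.2 (bases 64162461 to 64165954 of chromosome 7) had 2.17 and 2.24 FPKM in Leaf against 0.137 and 0.155 in Callus I, a log2 difference of 1.48 ± 0.27 (limma adjusted p = 0.002217). Both also had more than 1 FPKM in each Callus III library.

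Among the members lower in Leaf than in Callus I, Sobic.006G117500.v3.2 (bases 48520796 to 48522032 of chromosome 6) had 0.198 and 0.128 FPKM in Leaf against 3.69 and 8.94 in Callus I. The log2 difference was -2.55 ± 0.41 (SE, limma adjusted p = 0.001152), and Callus II had 130 and 144 FPKM. Sobic.006G103300.v3.2 (bases 47341833 to 47342496 of chromosome 6) had 0.730 and 0.186 FPKM in Leaf against 8.99 and 4.17 in Callus I, a log2 difference of -2.33 ± 0.61 (limma adjusted p = 0.01117). That call was lost without Callus I replicate 1 and without either Leaf library (adjusted p 0.0536 to 0.0987). Without Leaf replicate 1 or replicate 2, 5 and 6 members were called lower, and without either Callus III library 12 were called higher.

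The members lay on all 10 chromosomes. Chromosome 3 held 23 (21.7%), chromosome 1 held 17, chromosome 6 held 13, and chromosomes 7 and 10 held 11 each. Per tested gene the share was highest on chromosome 7 (0.713%), chromosome 3 (0.682%) and chromosome 6 (0.646%), and lowest on chromosome 2 (0.233%). Chromosomes 5 and 8 held 3 members each. Over the tested genes of the series 0.458% were members.

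**Figure D5:**
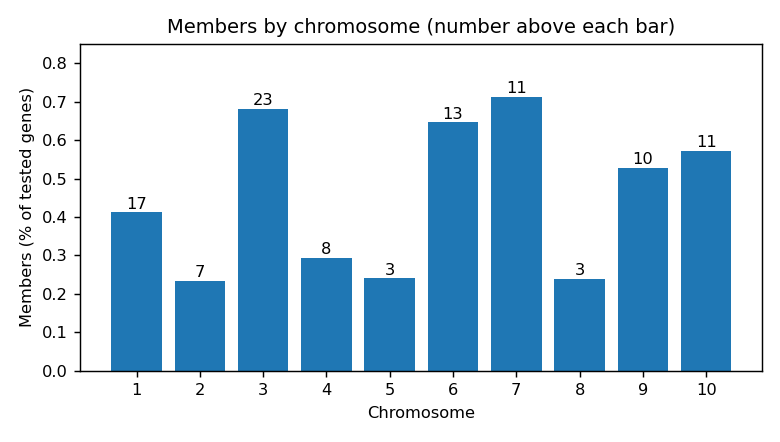
Bars give the members as a percentage of the tested genes on each chromosome, with the number of members above. The share runs from 0.233% on chromosome 2 to 0.713% on chromosome 7.

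The rule did not read locus length, but it read FPKM, which is corrected for transcript length. The tested genes were not matched to the members by level. The median locus of a member was 2045 bp (quartiles 1447 and 3625, range 417 to 15660), against 3511 bp over the tested genes (quartiles 2065 and 5291). The loci of 4 members (3.77%) overlapped another locus, as did 12.5% of the tested loci, and reads may have been shared between overlapping loci. One of these 4, Sobic.002G073300.v3.2 (bases 7548341 to 7554322 of chromosome 2), reached 14.1 and 19.1 FPKM in Callus II, and its highest other value was under 0.01 FPKM.

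Members lay side by side at 6 places, which together held 13 members, 1 group of 3 and 5 pairs. Every one of these groups consisted of directly adjacent loci with no other locus between them. The group of 3 was on chromosome 3 from 7192003 to 7203743 (11.7 kb). Its first member had 23.3 and 25.0 FPKM in Callus II and at most 2.36 FPKM elsewhere. The next had 21.7 and 15.7 FPKM, and at most 0.855 elsewhere. The last had 44.4 and 30.5 FPKM, and at most 2.22 elsewhere. The loci on either side of the group were not high in Callus II. One stood at 3.46 and 3.32 FPKM in Callus II, where Callus III reached 10.6 and 15.1, and the other stood at 12.9 and 9.78 FPKM in Callus II, beside 10.2 to 16.8 in the 6 other libraries.

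On chromosome 10, a pair from 7013124 to 7021609 (8.5 kb) had 28.0 and 30.7 FPKM at one gene and 22.0 and 19.5 at the other in Callus II. Both were listed at 0 in both Callus I libraries. A further pair on chromosome 10 spanned 44214509 to 44292435 (77.9 kb), with 16.3 and 18.2 FPKM at one gene and 28.4 and 29.8 at the other. The locus before that pair, which was no member, had 5.96 and 9.47 FPKM in Callus II and at most 0.799 elsewhere. The other 3 pairs lay on chromosome 1 from 77451946 to 77456486, on chromosome 3 from 49106318 to 49235787 and on chromosome 6 from 43527820 to 43536434. The files do not show whether adjacent members are copies of one another, and reads shared between near-identical copies could not be checked.

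Loci next to members were also examined. Of 197 loci that adjoined a member without being one, 139 were tested. The lower Callus II value was above the highest other value at 46 of them (33.1%), against 26.8% of all 23060 tested non-members. It was at least 2 times the highest other value at 15.8% of them, against 5.63%. Of the 6 genes nearest to the thresholds from outside, 2 adjoined a member. These shares used FPKM without median-ratio scaling, which would lower Callus II relative to the other libraries. They are descriptions, since adjacent loci are not independent of each other.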

How the data were processed

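The authors deposited 1 table per library with an identifier, a locus and an FPKM value for each gene, per the file headers. Trimmomatic, Cuffdiff and TopHat2 2.0 are listed, without their roles, per the submitters' processing notes. For the build, the settings and the use of strand, nothing is stated in the sources used here. The 8 tables held the same genes and loci and were joined by identifier, and no 2 libraries held identical values. FPKM are not counts, so no count model was used. Genes that reached 1 FPKM in 2 or more libraries were fitted in limma 3.58.1 (R 4.3.3) on log2(FPKM + 1), with 1 mean per group over all 8 libraries, a variance trend and Benjamini-Hochberg adjustment. This scale understates changes of low genes. The fit was run on simulated data for Callus III against Callus I only. These were drawn with the fit's own means and spreads, so the run could not test whether the fit's assumptions hold here. The depth of the libraries is known from the files only in relative terms.

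The members and the gene lists were chosen with earlier results of these data known. The rule for named genes took the members highest in Callus II, those with the largest ratio, those with the largest called changes, adjacent members and those nearest to a threshold. It asked for names, which the files do not give, so at most 2 per direction are printed. The lists of marker genes and pathways and the promoter motifs needed descriptions or sequences and were not used here. Alternatives covered the pseudocount, filters, scaling, libraries left out, a replicate block and the rule's thresholds.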

Additional observations from a re-analysis of the deposited data

How the results depend on the processing

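The number of members moved most with the thresholds and with 1 library. It was 253 at 4 times, 45 at 16 times and 66 at 20 FPKM. Leaving out each library in turn gave 106 to 173, the highest without Callus III replicate 2. With median-ratio scaling 77 of the 106 remained. In an alternative chosen after seeing the data, the second-highest group was counted without 1 library that was the higher of its pair at most members. The counts were not redone without the lower library of a pair. Without Callus III replicate 2 or Callus I replicate 1, Leaf was second at 11 to 19 members (10 as reported), Callus III at 56 to 83 (75) and Callus I at 7 to 29 (19), and 9 to 12 members had a Callus III mean of at least 5 FPKM (12).

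For Callus III against Callus I, members called lower (1 as reported) numbered 4 with a pseudocount of 0.1 FPKM, 0 with no filter on low values, 2 with a mean of at least 5 FPKM and 3 with the replicate block. Members called higher (45) numbered 29 with at least 1 FPKM in 2 of the 6 libraries other than Callus II, where 45 members were tested, and 27 with the 4 libraries of the 2 groups alone. With each library left out they numbered 26 to 61 higher and 0 to 4 lower. For Leaf against Callus I, members called numbered 15 higher and 21 lower with a pseudocount of 0.1 FPKM (7 and 13 as reported), 22 higher with those 4 libraries alone, and 5 to 12 higher and 5 to 15 lower with each library left out. The genes called over the whole series fell to 10695, from 16406, with a mean of at least 5 FPKM, which tests fewer genes. For Leaf against Callus III, 30 members were lower with the filter on the 6 libraries (47 as reported), and 1 to 4 were higher and 22 to 70 lower with each library left out. Apart from the fall to 10695, the numbers called over the whole series in these settings are not given. The shifts are therefore not read as particular to the members. Beyond fewer genes or libraries in the fit, the cause of these shifts was not tested. A group left with 1 library is assumed to vary like the others.

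Same-numbered replicates did not deviate together (correlations of their differences from -0.103 to 0.018), so the numbers are not taken as pairs. With the replicate block, members higher and lower numbered 45 and 3 for Callus III against Callus I, 7 and 11 for Leaf against Callus I and 3 and 45 for Leaf against Callus III. The share of promoters with a motif was not run, because no sequence was used here. Within 10 loci of another member lay 18 members, and 13 within 3 loci or 1. Values under 1 FPKM limit what can be said of members outside Callus II.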

Other observations

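Genes that met the same thresholds for another group also lay near each other. Another gene of the same set lay within 3 loci at 12.3% of the Callus II members, 21.7% of the 748 Leaf genes, 13.8% of the 225 Callus III genes and 21.7% of the 433 Callus I genes. The sets differ in size, which alone changes such shares, and no test was made.

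The difference between the Callus I replicates at the Callus II members had a counterpart at the genes of Callus III. The median ratio of Callus I replicate 2 to replicate 1 was 0.614 at the members, 0.714 at the Callus III genes, 1.02 at the Leaf genes and 0.952 at the genes of Callus I itself. In Callus III, the median ratio of replicate 2 to replicate 1 was 2.51 at the members, 1.23 at the Leaf genes and 1.37 at the Callus I genes.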
